A study of Mus musculus with 2 samples.

Results

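Genes that mark Kupffer cells, the resident macrophages of the liver, were followed in single-cell RNA libraries of mouse liver tumours. They are Cd5l, Vsig4, Clec4f, Fcna, Marco, Timd4, Cd163, Folr2 and Spic, 9 of the 32285 features in each library, chosen by name as known Kupffer cell genes. The tumours were Crtc2-/- in one library and Crtc2+/+ in the other, and both were captured with droplet 3' chemistry. Crtc2 is a coactivator through which CREB, a cAMP-responsive transcription factor, switches on its targets. Mice of both genotypes received the liver carcinogen diethylnitrosamine (DEN) by intraperitoneal injection at 25 mg/kg when 2 weeks old. From week 8 to week 26 both ate a NASH diet, a chow that brings on fatty liver with inflammation, and they were killed after week 26. The labels name no tissue to which the loss of Crtc2 was limited, and the sources used here do not give how many animals or tumours went into a library. There was 1 library per genotype, so nothing below was tested and differences have no replicates behind them. Genotype cannot be told apart from the animals and tumours sampled.

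Kupffer cells line the liver sinusoids beside endothelial cells, take up blood-borne particles, aged red cells and lipoproteins, and renew themselves locally in a healthy liver. When they are lost, for example in steatohepatitis, monocytes enter the liver and acquire part of the same gene program under endothelial, stellate and hepatocyte signals, with the nuclear receptor LXR-alpha (Nr1h3) and the regulator Id3 among its known drivers. Clec4f is regained by such recruited cells, whereas Timd4 marks mostly the embryo-derived ones.

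In the Crtc2-/- library 78040008 UMIs (unique molecular identifiers, which tag single captured transcripts) fell on 9242 barcodes, and in the Crtc2+/+ library 81487425 UMIs on 9707 barcodes. After filters and removal of called doublets, 8901 Crtc2-/- and 9349 Crtc2+/+ cells were kept, with medians of 6560 and 7115 UMIs. The libraries shared 29 barcode sequences. Crtc2 itself was counted 400 times in Crtc2-/- cells and 615 times in Crtc2+/+ cells, 5.43 and 7.96 CPM (the sum of a gene's UMIs over a population of cells, scaled to counts per 1e+06 UMIs of that population), a ratio of 0.683 with an exact 95% interval of 0.600 to 0.775. In C1q-high cells, defined below, its ratio was 0.881 (0.711 to 1.09), at 5.78 CPM in Crtc2-/- and 6.56 CPM in Crtc2+/+ cells, an interval that spans 1. The sources used here do not say which exons were lost, so counts near the transcript's 3' end cannot check the genotype. Cells were assigned by transcripts to 5 gates that may overlap. The C1q-high macrophage gate (C1qa, C1qb and C1qc together at 20 UMIs or more) held 1662 Crtc2-/- cells, 18.7% of those kept, and 4940 Crtc2+/+ cells, 52.8%. Their median depths were 11192 and 8922 UMIs. The Sox5-high myeloid gate held 694 and 119 cells, the monocyte gate 969 and 824, the T cell gate 2608 and 1926, and the endothelial gate 677 and 233. Intervals cover counting error only.

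All 9 genes are protein-coding in GENCODE M21 (GRCm38). Cd5l lies on chromosome 3 (87357881 to 87371073, plus strand), Vsig4 on X (96247203 to 96293438, minus), Clec4f on 6 (83644542 to 83656187, minus), Fcna on 2 (25624666 to 25628030, minus) and Marco on 1 (120474538 to 120505024, minus). Timd4 lies on 11 (46810800 to 46844332, plus), Cd163 on 6 (124304656 to 124330527, plus), Folr2 on 7 (101839988 to 101857194, minus) and Spic on 10 (88674772 to 88685015, minus). Promoters of 4 of them are shown because the patterns described below turn on these genes: Vsig4 and Clec4f were held mostly by cells with several members, and Cd5l and Spic reached further. The sequences are the 250 bases before the start site from RefSeq (GRCm38.p6), 5' to 3' on the gene's strand, with matches on either strand in capitals to GAGGAA (the core bound by PU.1 and by SpiC, the protein of Spic), TGCTGA (the half-site of MAF factors), AGGTCA (a nuclear receptor half-site, as bound by LXR with RXR) or TGACGT (the core of the site bound by CREB).
Cd5l (chr3:87357631-87357880, plus strand): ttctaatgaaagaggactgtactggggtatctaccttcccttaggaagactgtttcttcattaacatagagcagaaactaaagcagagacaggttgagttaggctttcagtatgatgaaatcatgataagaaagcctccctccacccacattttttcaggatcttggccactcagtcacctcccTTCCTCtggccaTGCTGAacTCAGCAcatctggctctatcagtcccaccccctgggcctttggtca
Vsig4 (chrX:96293439-96293688, minus strand): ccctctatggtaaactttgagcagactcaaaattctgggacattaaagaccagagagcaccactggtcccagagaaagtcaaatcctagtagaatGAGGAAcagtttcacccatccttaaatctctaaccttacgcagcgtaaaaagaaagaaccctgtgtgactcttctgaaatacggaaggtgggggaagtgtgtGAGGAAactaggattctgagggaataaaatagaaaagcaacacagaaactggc
Clec4f (chr6:83656117-83656366, minus strand): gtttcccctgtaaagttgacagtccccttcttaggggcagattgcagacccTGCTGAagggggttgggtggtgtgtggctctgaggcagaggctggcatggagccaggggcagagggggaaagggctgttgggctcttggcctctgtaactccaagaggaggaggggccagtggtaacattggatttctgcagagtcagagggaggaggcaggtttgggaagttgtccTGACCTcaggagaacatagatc
Spic (chr10:88683024-88683273, minus strand): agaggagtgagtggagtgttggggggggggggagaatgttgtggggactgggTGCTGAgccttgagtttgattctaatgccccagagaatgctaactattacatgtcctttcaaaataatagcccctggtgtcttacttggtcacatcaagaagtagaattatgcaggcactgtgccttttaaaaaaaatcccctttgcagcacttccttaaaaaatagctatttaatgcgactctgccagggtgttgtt

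The motifs were searched in 300-base windows, which add the first 50 bases after the RefSeq start. That start can differ from the GENCODE one: by the GENCODE bounds above, the Spic stretch lies inside its gene and the Clec4f stretch partly does. Each of the 9 genes had a window and Folr2 had 2, which makes 10. TGCTGA was present in 8 of the 10 windows, those of 7 genes (all but Marco and Cd163), and in 19.5% of all 32851 windows. GAGGAA was in the windows of Cd5l, Fcna, Marco and Vsig4, against 28.3% of all windows. AGGTCA was in those of Clec4f and Timd4, against 16.3% of all windows. TGACGT was in none of the 10, against 7.51% of all windows. The Vsig4 match to TGCTGA lies 24 bases past the start and is outside the stretch printed. No matches overlapped. A match in these letters is a description of the sequence and does not show binding.

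In C1q-high cells every member stood higher in the Crtc2-/- than in the Crtc2+/+ library. In all, 7 of the 9 members, Cd5l, Vsig4, Clec4f, Fcna, Marco, Folr2 and Spic, were at least 2-fold higher after 10 CPM was added to both levels. Of all 6854 genes with at least 20 CPM in a library in this gate, 5.52% were that much higher and 3.36% that much lower. Only 7 members had 20 CPM or more, and 6 of them reached it through the Crtc2-/- library alone, so that their difference follows in part from the minimum. The 2 members left, Timd4 and Cd163, had log2 ratios of 0.94 and 0.99 on this scale because of their low levels. Over all kept cells every member was also higher in the Crtc2-/- library, but by smaller ratios than in C1q-high cells. Without added CPM they were 14.1 for Cd5l, 14.9 for Vsig4, 8.44 for Clec4f, 19.8 for Fcna and 75.2 for Marco. For Timd4 the ratio was 4.10, for Cd163 14.4, for Folr2 8.09 and for Spic 6.89.

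Among the secreted members, Cd5l, a lipid-binding protein of macrophages and a target of LXR, had 28363 UMIs in 1662 Crtc2-/- C1q-high cells and 2115 UMIs in 4940 Crtc2+/+ C1q-high cells. Its level was 1322 CPM (1307 to 1338) in Crtc2-/- cells against 42.4 CPM (40.6 to 44.3) in Crtc2+/+ cells, 31.2-fold higher (29.8 to 32.6), and the intervals lie far apart. Fcna, ficolin A, a soluble lectin that starts the complement lectin pathway, had 130 CPM (126 to 135) in Crtc2-/- cells against 2.67 CPM (2.23 to 3.16) in Crtc2+/+ cells, 48.9-fold higher (41.0 to 58.6).

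Among the receptors for complement and carbohydrate, Vsig4 (CRIg, which binds C3 fragments on particles in blood) had 278 CPM (271 to 285) in Crtc2-/- against 8.49 CPM (7.70 to 9.33) in Crtc2+/+ C1q-high cells, 32.8-fold higher (29.7 to 36.3). Clec4f, a C-type lectin used as a marker of mouse Kupffer cells, had 199.98 CPM (194 to 206) in Crtc2-/- against 10.9 CPM (9.98 to 11.8) in Crtc2+/+ cells, 18.4-fold higher (16.8 to 20.2). Both receptors thus stood higher in the Crtc2-/- library, as the secreted members did.

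Among the scavenger and uptake receptors, Marco, a class A scavenger receptor for bacteria and particles, had 549 UMIs in 28 Crtc2-/- cells and 8 UMIs in 1 Crtc2+/+ cell, 25.6 and 0.160 CPM. Cd163, the receptor for haemoglobin bound to haptoglobin, had 222 UMIs in 65 Crtc2-/- cells and 13 UMIs in 12 Crtc2+/+ cells, 10.3 and 0.261 CPM. Timd4 (Tim-4), a phosphatidylserine receptor for dying cells, had 206 UMIs in 35 Crtc2-/- cells and 11 UMIs in 3 Crtc2+/+ cells, 9.60 and 0.221 CPM. These 3 genes were sparse in both libraries, and a single Crtc2+/+ cell carried all of its Marco. Folr2, folate receptor beta, had 95.7 CPM (91.6 to 99.9) in Crtc2-/- against 5.30 CPM (4.68 to 5.97) in Crtc2+/+ cells, 18.1-fold higher (15.9 to 20.6).

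Spic encodes the transcription factor SpiC, which in mouse is needed for iron-recycling macrophages of the spleen. It had 121 CPM (117 to 126) in Crtc2-/- against 8.32 CPM (7.54 to 9.17) in Crtc2+/+ C1q-high cells, 14.6-fold higher (13.1 to 16.2). It was spread thinly over many cells: 44.6% of Crtc2-/- and 5.75% of Crtc2+/+ C1q-high cells had a UMI, with an average of 3.50 and 1.46 UMIs in those cells. Cd5l was found in nearly as many, 43.7% and 2.33%, but at 39.0 and 18.4 UMIs per cell that had it. Clec4f was found in 11.1% of Crtc2-/- and 0.486% of Crtc2+/+ cells, with 23.2 and 22.6 UMIs in each cell that had it. Vsig4 had 20.7 and 12.1 UMIs per such cell and Folr2 8.18 and 3.62. Vsig4, Folr2, Cd5l and Spic thus differed between the libraries in how many cells held them and in this average. Clec4f differed mainly in how many cells held it. The averages are not thinned and include cells with exactly 1 UMI. For Cd5l such cells were 9.81% of Crtc2-/- and 1.40% of Crtc2+/+ C1q-high cells. Levels in cells chosen by the other members are given below.

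**Figure D1:**
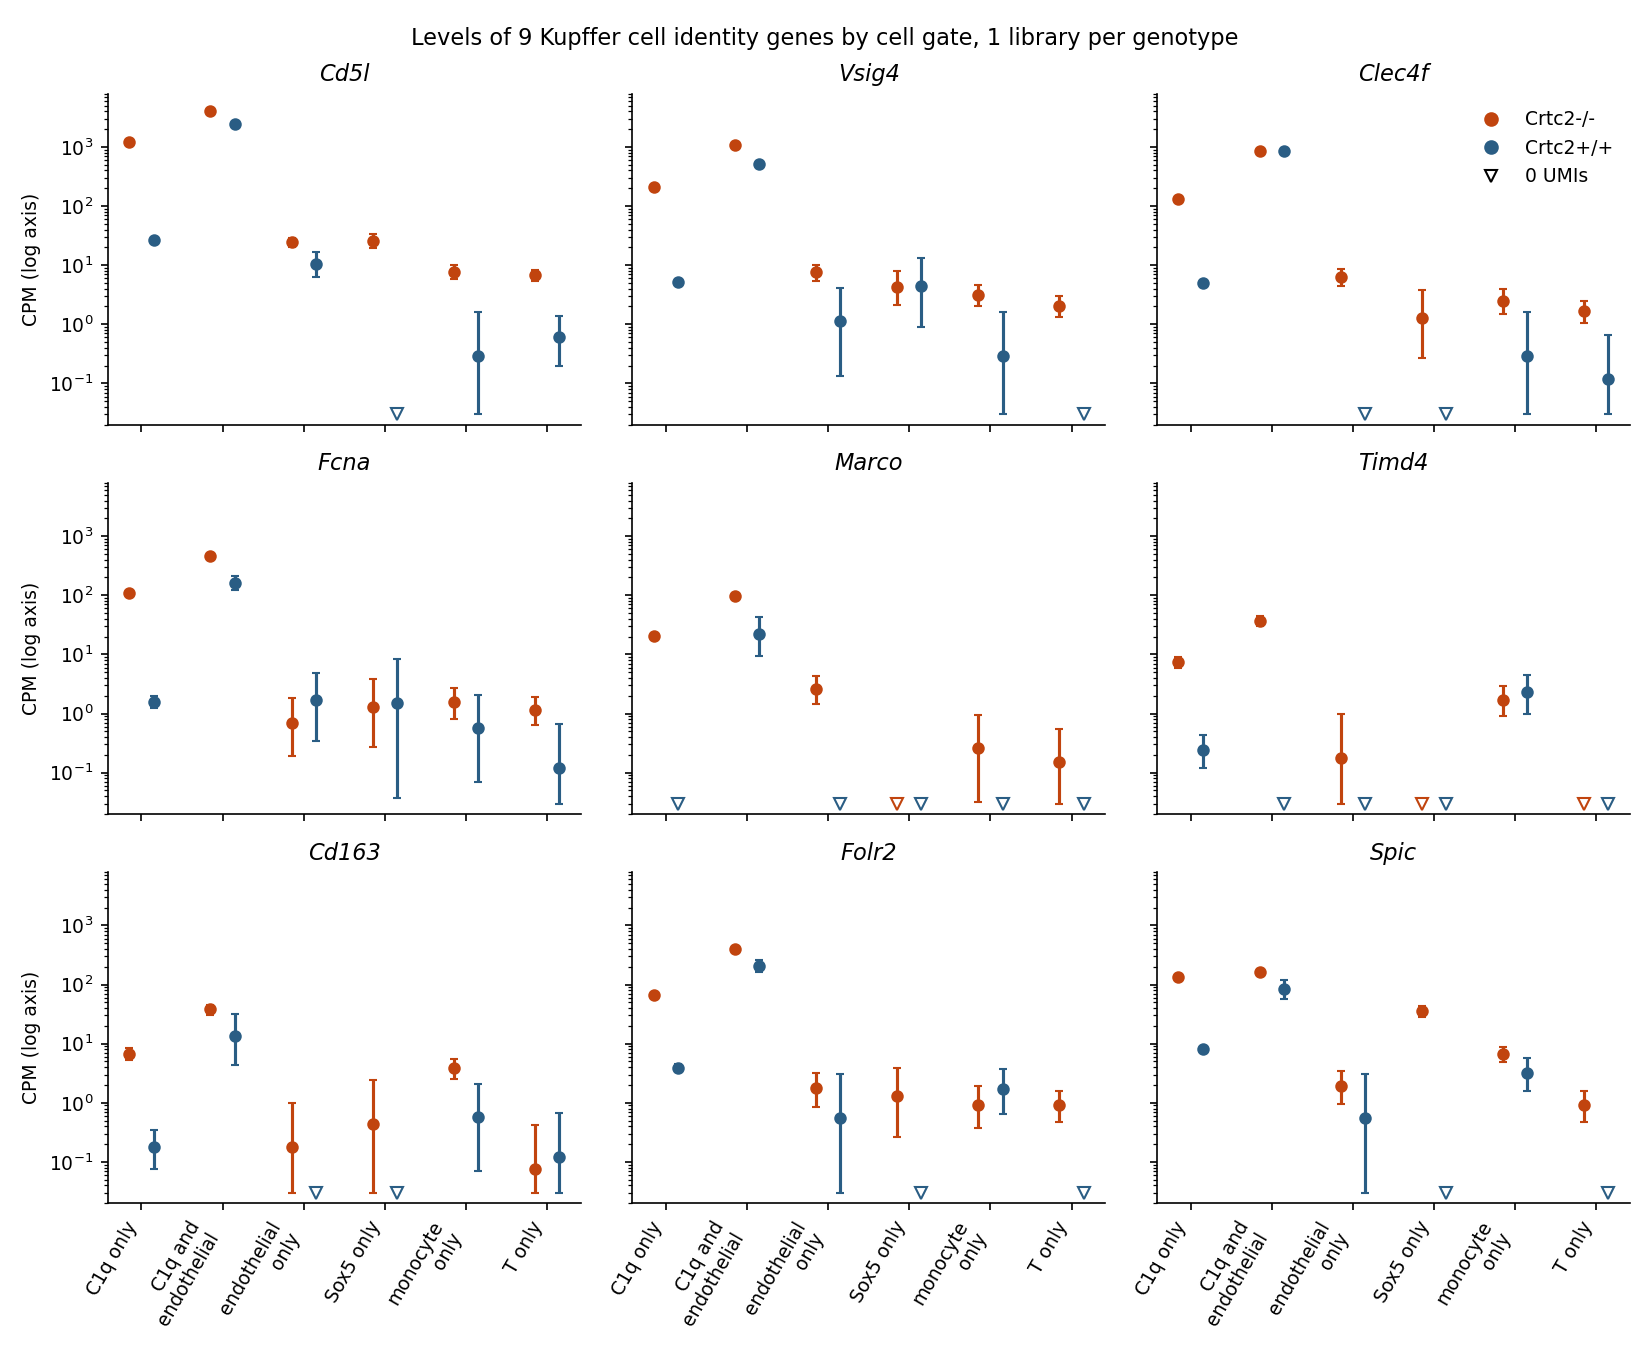
Level of each gene (CPM, log axis) in cells of 1 gate only and in cells of both the C1q and endothelial gates, Crtc2-/- (red, left) and Crtc2+/+ (blue, right). Bars are exact 95% Poisson intervals, drawn no lower than 0.03 CPM, and open triangles are 0 UMIs. Every member was highest in cells of both gates in either library, except Timd4 in the Crtc2+/+ library, and in C1q-only cells every Crtc2-/- point lies above its Crtc2+/+ point.

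Outside the C1q gate most members were scarce. The C1q gate held 98.0% of all Cd5l UMIs of the Crtc2-/- library and 98.2% of those of the Crtc2+/+ library, and 96.9% and 97.2% for Vsig4. Timd4 and Cd163 were spread more widely, with 82.4% and 17.2% of Timd4 and 73.5% and 59.1% of Cd163 in the C1q gate of the Crtc2-/- and Crtc2+/+ libraries. In cells of the T cell gate alone, which should lack all 9 genes, Cd5l stood at 6.79 CPM in Crtc2-/- and 0.598 CPM in Crtc2+/+ cells. After each cell was thinned to 2000 UMIs, 31.1% of Crtc2-/- C1q-high cells and 1.48% of Crtc2-/- T-only cells had a Cd5l UMI. In the Crtc2+/+ library these shares were 1.07% and 0.0625%. The median depths before thinning were 11192 and 4582 UMIs in the Crtc2-/- library and 8922 and 4461 in the Crtc2+/+ library. The members' UMIs in Crtc2-/- T-only cells resembled those of C1q-high cells in that Cd5l led both, giving 49.7% (42.2 to 57.2) of 181 UMIs in T-only and 60.3% (59.8 to 60.7) in C1q-high cells. A share at or below that of T-only cells was read as background. By this rule alone Cd163 in the Crtc2+/+ library would be background, found in 0.0203% of thinned C1q-high cells and 0.0625% of T-only cells. With 1 cell each the rule cannot decide. At full depth 12 of 4940 Crtc2+/+ C1q-high cells had Cd163 (0.243%), against 1 UMI in 1669 T-only cells. It was found in 5 of 26 Crtc2+/+ C1q-high cells with 2 or more other members (19.2%) and in 0.125% of those with none.

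In the T cell gate as a whole 5 members were at least 2-fold higher in Crtc2-/- cells, where 1.52% of tested genes were. Only Cd5l, at 103 CPM in Crtc2-/- against 0.675 CPM in Crtc2+/+ cells, passed 20 CPM. The T cell gate shared 46 Crtc2-/- and 34 Crtc2+/+ cells with the C1q gate. In the monocyte gate 2 members, Cd5l and Spic, were at least 2-fold higher in Crtc2-/- cells, with a background of 1.86%. Only Cd5l passed the 20 CPM of the background genes. Cd5l had 60.02 CPM in Crtc2-/- and 2.18 CPM in Crtc2+/+ monocyte-gate cells, and Spic 18.7 and 3.21 CPM. The 104 Crtc2-/- cells shared with the C1q gate held 566 of the 633 Cd5l UMIs and 144 of the 197 Spic UMIs of this gate. In cells of the monocyte gate alone 0 of the 9 members were 2-fold higher, with a background of 0.897%. No member reached 10 CPM there, so with 10 CPM added none could be called, and this count says nothing about the members. Without added CPM, Cd5l was at 7.75 CPM in Crtc2-/- and 0.289 CPM in Crtc2+/+ cells, a ratio of 26.8 (4.63 to 1077) that rests on 1 Crtc2+/+ UMI. Timd4 and Folr2 were lower in Crtc2-/- cells, with ratios of 0.739 (0.284 to 2.06) and 0.530 (0.153 to 1.91).

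The Sox5-high myeloid gate of the Crtc2-/- library held a larger share of Spic among the members' UMIs than the C1q-high gate, 22.2%. This was not particular to it: the share was 17.6% in the monocyte gate and 26.3% in cells outside every gate. In the T cell and endothelial gates it was 6.66% and 2.32%. Cd5l, Vsig4, Clec4f and Spic, 4 of the 9, were at least 2-fold higher in Crtc2-/- cells of the Sox5-high gate, with 6.53% of tested genes higher. Clec4f, at 18.5 CPM, lay below the 20 CPM of the tested genes. The Sox5-high gate shared 423 of its 694 Crtc2-/- cells and 73 of its 119 Crtc2+/+ cells with the C1q gate. In cells of the Sox5-high gate alone only Cd5l and Spic, 2 of the 9, were that much higher, with a background of 12%. Vsig4 was at 4.34 CPM in Crtc2-/- and 4.43 CPM in Crtc2+/+ cells there, and Clec4f had 3 UMIs in Crtc2-/- cells. Among the 262 Sox5-only cells of the Crtc2-/- library, Spic gave 50.6% (42.6 to 58.6) of the members' 160 UMIs, against 5.52% (5.32 to 5.74) in C1q-high cells of the same library. Spic stood at 35.1 CPM (27.9 to 43.7) in these Crtc2-/- cells, and 0 UMIs were counted in 46 Crtc2+/+ cells, where 3 counts would be 4.43 CPM, so the Crtc2-/- level was at least 7.93-fold higher. Spic in Crtc2-/- T-only cells was 0.906 CPM (0.468 to 1.58). Cd5l in the Sox5-only Crtc2-/- cells was 25.6 CPM (19.5 to 33.0).

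In the endothelial gate 7 members, all but Clec4f and Cd163, were at least 2-fold higher in Crtc2-/- cells, with 3.5% of tested genes higher, but its members lay in cells that also passed the C1q gate. In endothelial-gate cells outside the C1q gate Cd5l had 24.3 CPM in Crtc2-/- and 9.76 CPM in Crtc2+/+ cells. In cells of both gates, 139 Crtc2-/- and 17 Crtc2+/+ cells, it had 4091 CPM (4017 to 4165) and 2397 CPM (2241 to 2560). Clec4f hardly differed between the libraries in these cells, at 849 CPM in Crtc2-/- and 864 CPM in Crtc2+/+ cells, a ratio of 0.982 (0.873 to 1.11). These few cells held 40.7% and 40.8% of all Cd5l UMIs of their libraries, 55.2% and 57.6% of all Clec4f, and 50.8% and 42.5% of all Vsig4. They held less of Spic, 16.3% and 6.95%. The concentration of members in cells that carry endothelial transcripts was thus present in both libraries.

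**Figure D2:**
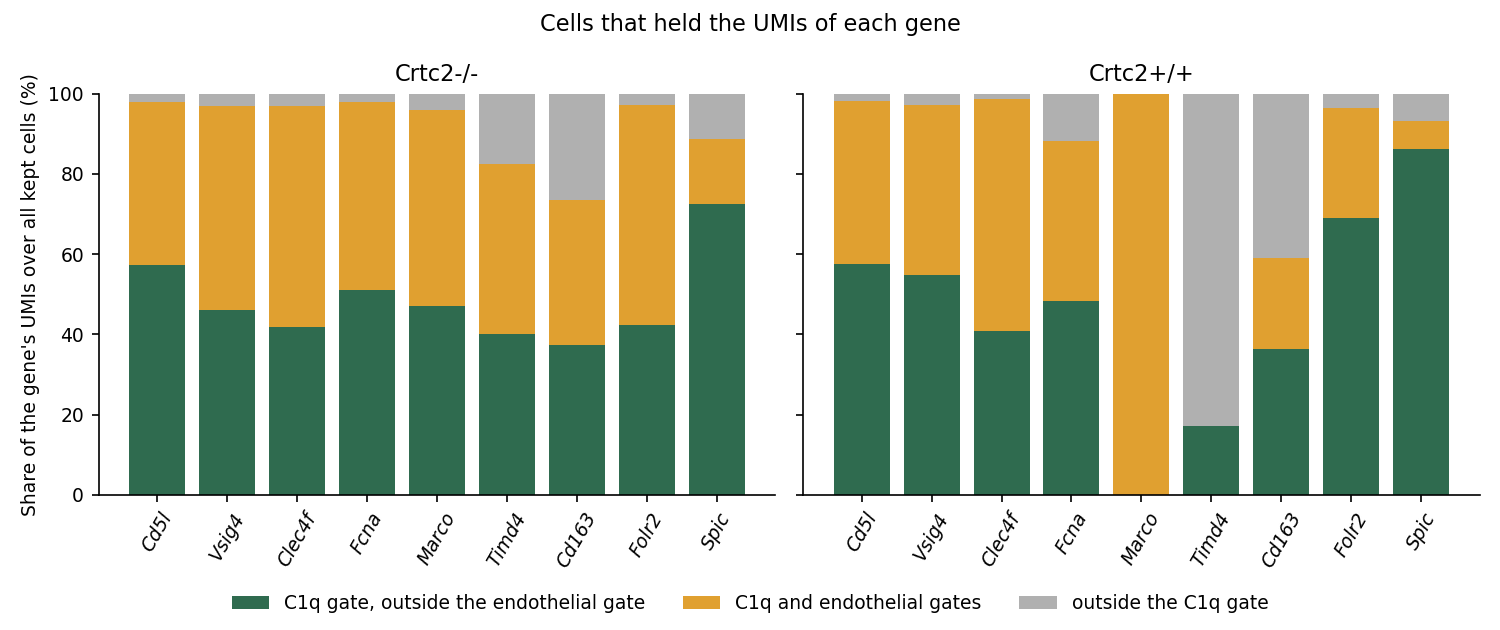
Share of each gene's UMIs (percent of all kept cells' UMIs of that gene) held by C1q-high cells outside the endothelial gate (green), by cells of both gates (amber) and by cells outside the C1q gate (grey), Crtc2-/- left and Crtc2+/+ right. Cells of both gates, 139 and 17 in number, held 40.7% and 40.8% of Cd5l, and Timd4 in the Crtc2+/+ library lay mostly outside the C1q gate.

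Cells of both gates were deep and carried endothelial transcripts at a fraction of the endothelial level. Their median depth was 20066 UMIs in the Crtc2-/- and 20834 UMIs in the Crtc2+/+ library. The median of their Ptprb and Stab2 UMIs, on which the gate rests, was 4 in Crtc2-/- and 7 in Crtc2+/+ cells, against 55 and 17 in cells of the endothelial gate alone. Summed over 7 endothelial markers, Crtc2-/- cells of both gates had 1422 CPM, C1q-only cells 260 CPM and endothelial-only cells 10755 CPM. The Crtc2+/+ sums were 2097, 28.7 and 6613 CPM. Summed over 6 macrophage markers, cells of both gates had 4082 CPM in the Crtc2-/- and 3124 CPM in the Crtc2+/+ library, against 2883 and 2359 CPM in C1q-only cells. Before doublets were removed, 26 of 165 Crtc2-/- and 12 of 29 Crtc2+/+ cells of both gates were called doublets, 15.8% and 41.4%, against 5.46% and 4.06% of all C1q-high cells. With these cells left out, the same 7 members were at least 2-fold higher in Crtc2-/- C1q-high cells, with a background of 5.14%. Marco, at 14.5 CPM, then lay below the 20 CPM of the background genes. Cd5l had 893 CPM in Crtc2-/- against 25.0 CPM in Crtc2+/+ cells.

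The members were found together in the same cells. After thinning to 2000 UMIs, 207 of 1661 Crtc2-/- C1q-high cells had 3 or more members, 12.5% (10.9 to 14.1), against 16 of 4934 Crtc2+/+ cells, 0.324% (0.185 to 0.526). Without thinning the shares were 22.7% and 0.607%. After thinning, at least 1 member was found in 42.3% of Crtc2-/- and 2.84% of Crtc2+/+ cells, so 959 Crtc2-/- and 4794 Crtc2+/+ cells had none. Without thinning 66.1% and 8.85% had a member, and 563 and 4503 cells had none. Outside the endothelial gate, 121 of 1522 Crtc2-/- cells (7.95%) and 10 of 4917 Crtc2+/+ cells (0.203%) had 3 or more. As a share of all kept cells, those with 3 or more members were 2.33% (2.02 to 2.66) of the Crtc2-/- and 0.171% (0.0979 to 0.278) of the Crtc2+/+ library, so the order was the same when the size of the C1q gate was left out.

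**Figure D3:**
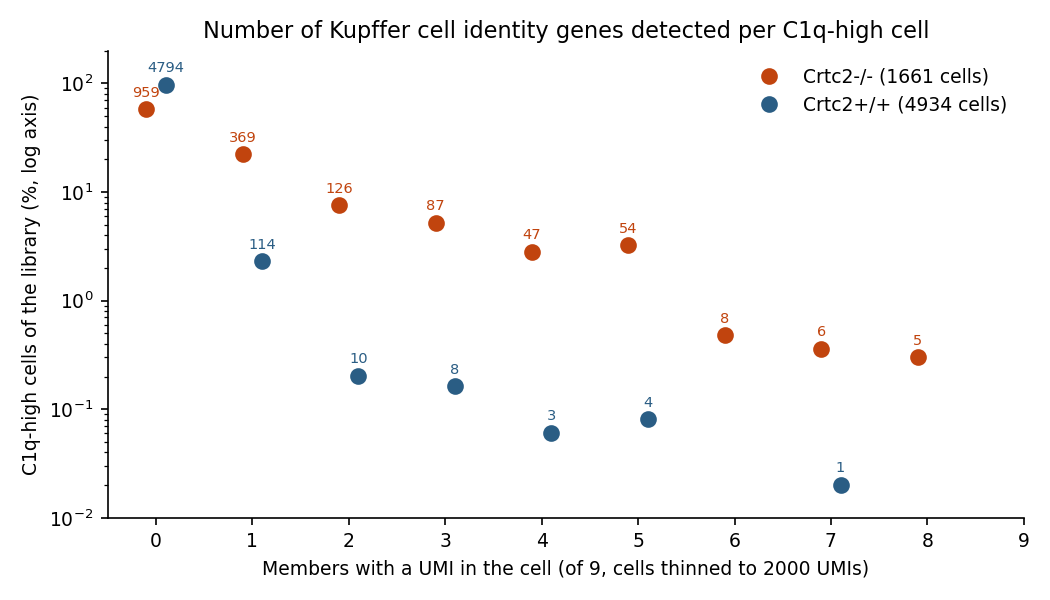
Share of C1q-high cells (percent, log axis) by the number of members with a UMI after thinning to 2000 UMIs, Crtc2-/- (red, left) and Crtc2+/+ (blue, right), with the number of cells above each point. From 1 to 8 members every Crtc2-/- share is higher, and 5 Crtc2-/- cells had 8 members.

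Pairs of members met more often than their separate shares give. Among Crtc2-/- C1q-high cells, 33 of the 36 pairs had an expected count of at least 1 cell from the product of the shares, and all 33 were seen above it, with a median of 5.20 times and a range of 1.09 to 10.8 times. Clec4f and Timd4 stood at 10.8 times, with 13 cells holding both. Of 133 cells with Clec4f, 127 also had Cd5l (95.5%) and 100 had Vsig4 (75.2%). Of the cells without it, 25.5% had Cd5l and 6.15% Vsig4. All 18 cells with Marco had Vsig4. The relation was not symmetric: of 517 cells with Cd5l, 24.6% had Clec4f and 31.9% Vsig4. These cells share 1 library and were thinned to 1 depth.

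Spic was the exception among the pairs. Its 259 cells held Vsig4 in 14.7% and Clec4f in 8.88%, against 11.1% and 7.85% of cells without Spic, and its pairs with the other 8 members lay at 1.09 to 1.80 times the product. Fcna was the member most often found beyond the product with Spic, at 1.80 times, and Folr2 the least, at 1.09 times.

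In the Crtc2+/+ library no pair had an expected count of 1 cell, so raw numbers are given. Of 15 C1q-high cells with Clec4f all 15 had Cd5l and 9 had Vsig4. Of 18 with Vsig4, 13 had Cd5l, and of 11 with Fcna, 8 had Cd5l and 8 had Folr2. Of 71 cells with Spic, 5 had Cd5l and 2 had Clec4f. The few Crtc2+/+ cells with Clec4f or Vsig4 thus mostly held Cd5l, and most with Spic did not.

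**Figure D4:**
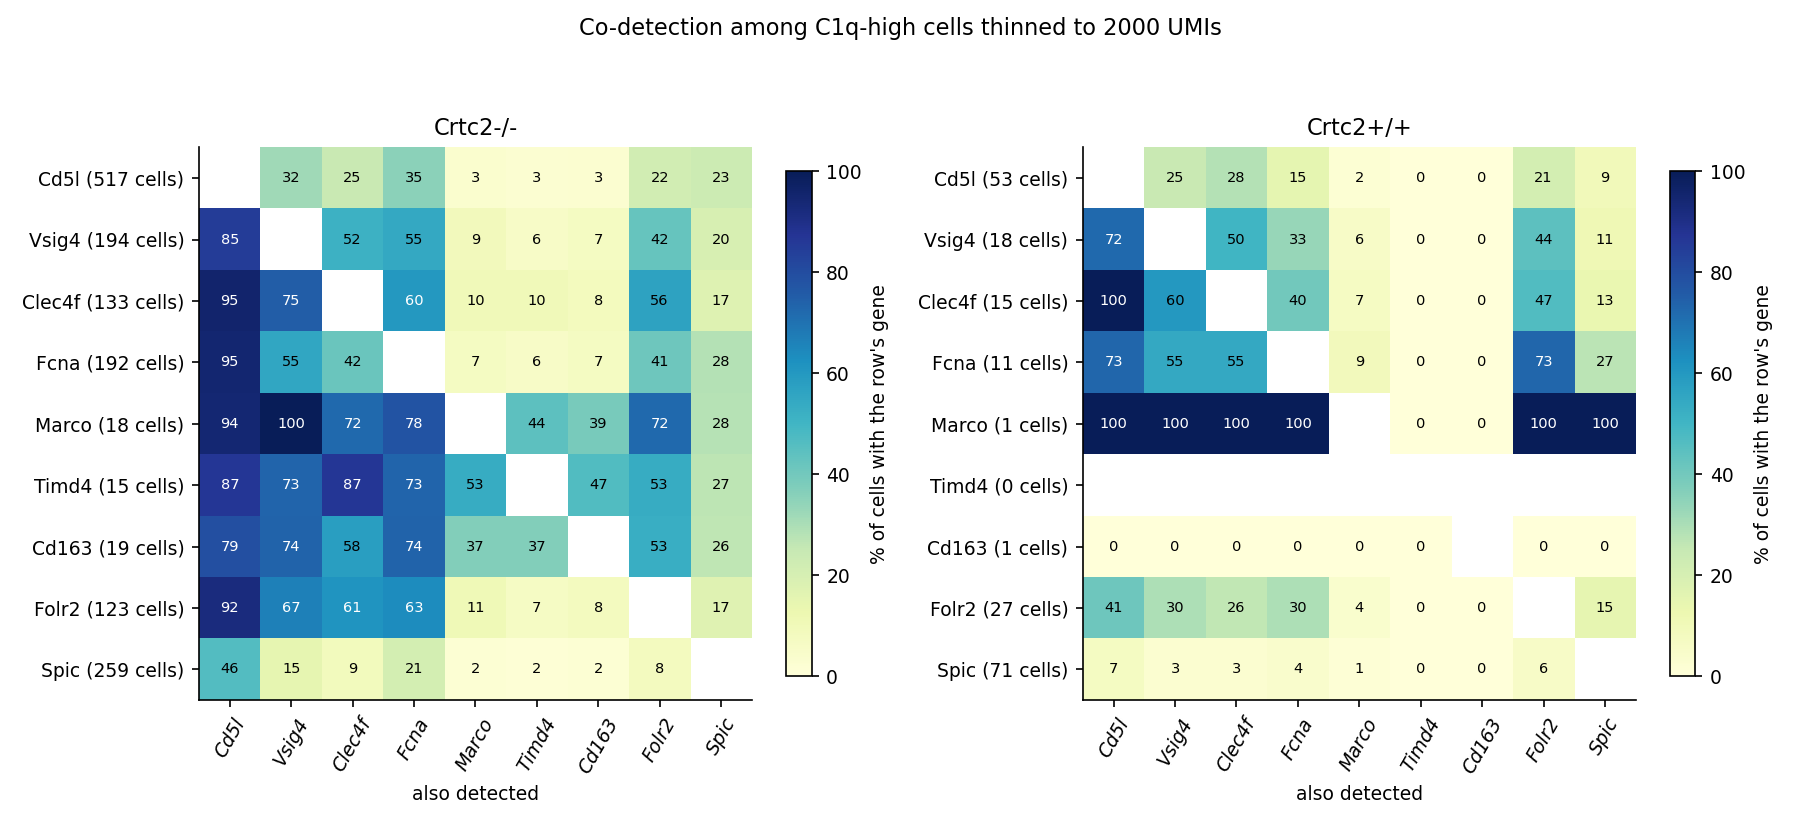
Percent of C1q-high cells with the row's gene in which the column's gene was also detected, after thinning to 2000 UMIs, Crtc2-/- left and Crtc2+/+ right, with the number of cells in each row's label. Cd5l was found in 95% of Crtc2-/- and 100% of Crtc2+/+ cells with Clec4f, while the Spic rows are pale; Marco and Cd163 had 1 Crtc2+/+ cell each and Timd4 had 0.

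To describe a member's level apart from its own detection, C1q-high cells were chosen by UMIs of the other 8 genes after thinning to 2000 UMIs, and the level was taken from all UMIs of those cells. In cells with 2 or more others, the levels of Cd5l, Vsig4 and Folr2 lay much nearer between the libraries than over all C1q-high cells. Cd5l had 4629 CPM (4561 to 4697) in 220 Crtc2-/- cells against 3937 CPM (3730 to 4152) in 20 Crtc2+/+ cells, a ratio of 1.18 (1.11 to 1.24). Vsig4 had 1013 CPM in 310 Crtc2-/- against 874 CPM in 25 Crtc2+/+ cells, a ratio of 1.16 (1.04 to 1.29). Folr2 had 343 CPM in 319 Crtc2-/- against 346 CPM in 23 Crtc2+/+ cells, a ratio of 0.990 (0.830 to 1.19). The ratios of these 3 members were 18.1 or more over all C1q-high cells.

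Clec4f alone was lower in the Crtc2-/- cells of this kind beyond its interval, at 749 CPM in 325 Crtc2-/- cells against 1311 CPM in 23 Crtc2+/+ cells, a ratio of 0.571 (0.521 to 0.628). It was detected in 46.2% and 60.9% of them. Fcna had 440 CPM in Crtc2-/- against 273 CPM in Crtc2+/+ cells, a ratio of 1.61 (1.33 to 1.97), and Spic 190 against 112 CPM, a ratio of 1.69 (1.23 to 2.37). Marco had 94.8 CPM in Crtc2-/- and 18.9 CPM in Crtc2+/+ cells, where 1 cell held all of it. Timd4 had 34.6 against 14.1 CPM, a ratio of 2.45 (1.10 to 6.74), and Cd163 36.3 against 14.1 CPM, a ratio of 2.57 (1.16 to 7.08). Each of these 2 rests on 6 Crtc2+/+ UMIs. Cells of 1 library are not replicates, and with 20 to 26 Crtc2+/+ cells a ratio can rest on a few of them. Outside the endothelial gate the Cd5l ratio was 1.59 (1.46 to 1.74), the Folr2 ratio 0.851 (0.658 to 1.12), the Clec4f ratio 0.678 (0.583 to 0.793) and the Spic ratio 3.51 (1.99 to 6.83).

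In C1q-high cells with none of the other 8 genes, only Cd5l and Spic stood above 10 CPM in a library. Cd5l had 355 CPM (345 to 365) in 1157 Crtc2-/- cells against 11.6 CPM (10.7 to 12.6) in 4825 Crtc2+/+ cells, a ratio of 30.5 (28.0 to 33.3), and was found in 31.0% and 1.84% of them. Spic had 81.1 CPM (76.2 to 86.2) in 1092 Crtc2-/- cells against 7.01 CPM (6.29 to 7.79) in 4857 Crtc2+/+ cells, a ratio of 11.6 (10.2 to 13.1). Folr2 had 1.70 CPM in Crtc2-/- and 1.78 CPM in Crtc2+/+ cells, a ratio of 0.956 (0.549 to 1.59). Vsig4 had 8.35 and 0.518 CPM, while T-only cells had 2.04 CPM in the Crtc2-/- library and 0 of 8364800 UMIs in the Crtc2+/+ library. A cell counted here as having no other member may hold some that thinning removed. At full depth, in the 749 Crtc2-/- and 4565 Crtc2+/+ cells with 0 UMIs of the other 8 genes, Cd5l had 116 CPM (109 to 124) and 2.52 CPM (2.08 to 3.02), below the 355 and 11.6 CPM of the thinned choice. Spic chosen in the same way had 76.3 CPM (70.7 to 82.1) in 834 Crtc2-/- cells and 6.93 CPM (6.20 to 7.72) in 4744 Crtc2+/+ cells. Among C1q-high cells, those with 3 or more members held 90.1% of Vsig4 UMIs in the Crtc2-/- and 83.2% in the Crtc2+/+ library, and 95.8% and 92.1% of Clec4f UMIs, but 29.3% and 9.16% of Spic UMIs. The shares were lower in the Crtc2+/+ library for Folr2 (88.0% and 47.0%) and for Cd163 (82.4% and 38.5%, the last of 13 UMIs).

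**Figure D5:**
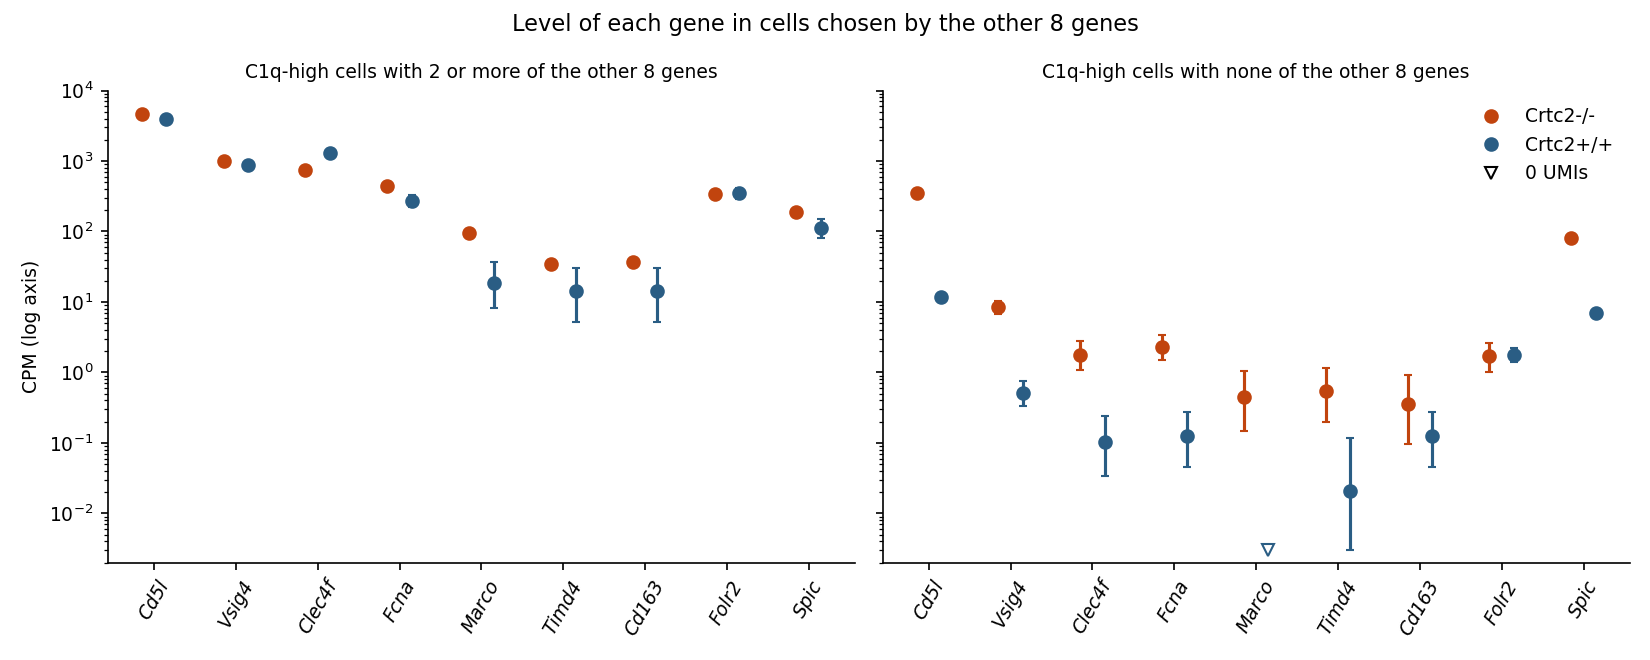
Level of each gene (CPM, log axis) in C1q-high cells with 2 or more of the other 8 genes (left) and with none of them (right), Crtc2-/- (red, left) and Crtc2+/+ (blue, right), with exact 95% Poisson intervals drawn no lower than 0.003 CPM. Cd5l stood at 4629 and 3937 CPM on the left and at 355 and 11.6 CPM on the right.

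Of 7 Kupffer cell markers outside the members, Crtc2-/- cells with 3 or more members had 4 at least 2-fold higher than cells with none. In the Crtc2+/+ library 2 were that much higher. The 7 include C1qa, C1qb and C1qc, which set the C1q gate that all these cells passed. Of 6 macrophage markers, 4 and 1 were, and Adgre1 and Csf1r stand in both lists. Over all genes of at least 20 CPM in a kind of cell, 5.76% and 9.7% were. In the 207 Crtc2-/- cells and 16 Crtc2+/+ cells, Clec1b, a receptor shared with platelets and used as a Kupffer cell marker, had 460 and 515 CPM, against 52.2 and 13.7 CPM in cells with none. Adgre1 (F4/80) had 941 and 895 CPM, against 410 and 484 CPM, and Csf1r, the CSF1 receptor, had 887 and 741 CPM, against 324 and 469 CPM. C1q transcripts were at 13381 CPM in Crtc2-/- and 13613 CPM in Crtc2+/+ cells with 3 or more members, against 10318 and 15534 CPM in cells with none, so that they were higher than in cells with none in the Crtc2-/- library and lower in the Crtc2+/+ library. Fcgr1, an antibody receptor, likewise had 214 and 240.2 CPM, against 146 and 289 CPM. The cells with 3 or more members were deeper than those with none, with medians of 17426 and 17093 UMIs against 10362 and 8908, and 41.5% and 37.5% of them were in the endothelial gate.

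Other Kupffer cell genes followed the members. Of 20 such genes 19 were measured (20 UMIs or more over both libraries in C1q-high cells), and 13 of the 19 were at least 2-fold higher and 0 lower in Crtc2-/- C1q-high cells, with a median log2 ratio of 1.96 against 0.05 over all genes of at least 20 CPM. Slc40a1 (ferroportin, the iron exporter) had 553 CPM in Crtc2-/- against 29.0 CPM in Crtc2+/+ cells, Pltp (phospholipid transfer protein) 455 against 52.0, Cd38 (an NAD-consuming enzyme) 214 against 27.7 and C6 (a complement component) 51.3 against 1.28. In cells with 3 or more members against cells with none, 15 of the 19 were at least 2-fold higher in either library, with medians of 3.05 in the Crtc2-/- and 3.20 in the Crtc2+/+ library. The share over all genes was 5.76% in the Crtc2-/- and 9.7% in the Crtc2+/+ library. Between the libraries, within cells of 3 or more members, their median log2 ratio was 0.07 and 0 of 19 passed 2-fold either way. The list holds Cdh5, which is also an endothelial marker.

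Regulators of the Kupffer cell program showed 2 patterns. Of 15, 5 were at least 2-fold higher in Crtc2-/- C1q-high cells and 0 lower, with a median log2 ratio of 0.28. They were Nr1h3 at 330 CPM in Crtc2-/- against 17.4 CPM in Crtc2+/+ cells, Id3 at 328 against 21.02, Id1 (an inhibitor of DNA binding like Id3) at 47.2 against 6.88, Tfec (a transcription factor of the MITF family) at 61.8 against 11.7, and Rxra (the partner of LXR-alpha) at 41.6 against 10.2. Spi1 (PU.1), which sets general macrophage identity, had a log2 ratio of 0.18.

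In C1q-high cells with no member, 3 of the 15 regulators were at least 2-fold higher in the Crtc2-/- library, where 5.03% of tested genes were. Nr1h3 had 296 CPM in 959 Crtc2-/- cells against 14.3 CPM in 4794 Crtc2+/+ cells, and Id3 had 218 against 11.2 CPM. In cells with 3 or more members the same genes had 376 CPM in Crtc2-/- against 265 CPM in Crtc2+/+ cells for Nr1h3, and 586 against 1002 CPM for Id3. T-only cells had 4.38 CPM of Nr1h3 in the Crtc2-/- and 0.956 CPM in the Crtc2+/+ library, and 34.3 and 26.4 CPM of Id3. Of the other Kupffer cell genes, Pltp (377 against 44.6 CPM), Slc40a1 (78.9 against 12.3), Cd38 (115 against 21.5) and Hmox1, the haem-degrading enzyme (198 against 85.6), were at least 2-fold higher in Crtc2-/- cells with no member, and Ptgs1, a cyclooxygenase, was lower (36.7 against 131), where 3.68% of tested genes were. Nr1h3 and Id3 thus differed more between the libraries in cells with no member, with log2 ratios of 3.65 and 3.43, than in cells with 3 or more, with 0.49 and -0.77. Of the cells with no member, 311 Crtc2-/- cells (32.4%) and 73 Crtc2+/+ cells (1.52%) were in the Sox5-high gate. Sox5-only cells had 290 CPM of Nr1h3 in Crtc2-/- against 29.6 CPM in Crtc2+/+ cells, and 215 against 293 CPM of Id3. C1q-only cells had 308 against 15.3 CPM of Nr1h3 and 313 against 13.6 CPM of Id3. The part of Sox5-high cells in the difference was not tested. The cells with no member were chosen by the absence of members after thinning, so the members themselves are not compared in them. At full depth only 563 Crtc2-/- and 4503 Crtc2+/+ C1q-high cells had none. Part of the cells compared here thus held a member, a larger part in the Crtc2-/- library. Levels of these genes in cells with none at full depth are not given here.

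Genes that mark recently arrived or lipid-associated macrophages did not follow the members. Of 14, 3 were at least 2-fold higher and 5 lower in Crtc2-/- C1q-high cells, with a median log2 ratio of 0.17. The higher ones were Fabp5 (a fatty acid binding protein, 143 CPM in Crtc2-/- against 34.0 CPM in Crtc2+/+ cells), Plac8 (340.2 against 115) and S100a4 (116 against 49.3). The lower ones were Cd63 (231 CPM in Crtc2-/- against 880.5 CPM in Crtc2+/+ cells), Trem2 (a lipid receptor, 68.9 against 252), Cx3cr1 (the fractalkine receptor, 176 against 522), Spp1 (osteopontin, 67.5 against 208) and Cd9 (107 against 289). In cells with 3 or more members against cells with none, 5 of 14 were at least 2-fold lower in the Crtc2-/- and 9 in the Crtc2+/+ library, where 4.4% and 8.76% of all genes were. Outside the endothelial gate 9 of 14 were that much lower in the Crtc2-/- library too, and the share over all genes there is not given here. Ccr2, the receptor for monocyte recruitment, had 23.7 CPM in Crtc2-/- and 3.48 CPM in Crtc2+/+ cells with 3 or more members, against 242 and 295 CPM in cells with none. Trem2 had 55.2 CPM in Crtc2-/- and 303 CPM in Crtc2+/+ cells with 3 or more members. Of 11 niche signals and their receptors, 8 were measured and 0 were 2-fold higher or lower in Crtc2-/- C1q-high cells, with a median log2 ratio of 0.03.

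Markers of other cell types also differed between the libraries in the C1q-high gate. The summed level of 7 endothelial markers was 459 CPM in Crtc2-/- and 44.4 CPM in Crtc2+/+ cells, with 6 of 7 at least 2-fold higher, that of 4 neutrophil markers 390 and 106 CPM, with 2 of 4 higher, and that of 6 hepatocyte markers 292 and 81.8 CPM, with 5 of 6 higher. The sums of 6 T cell markers were 52.3 and 19.7 CPM, of 4 B cell markers 93.4 and 31.6 CPM, of 5 monocyte markers 560 and 442 CPM and of 5 dendritic cell markers 73.0 and 110 CPM. No marker of these lists was at 0 in either library. Without the cells of the endothelial gate the 7 members stayed at least 2-fold higher, as given above, and the part of the other markers was not tested.

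The 10 genes whose transcripts followed the number of members most closely across C1q-high cells, averaged over both libraries, were chosen among the 4887 genes found in at least 5% of these cells in each library, mitochondrial and ribosomal protein genes left out. They were Mrc1, Sdc3, Vcam1, Ctsb, Mertk, Ptgs1, Ctla2b, Lpl, Lrp1 and Msr1. Mean Pearson r was 0.29 to 0.25, between 0.36 and 0.48 across 1661 Crtc2-/- cells and between 0.06 and 0.16 across 4934 Crtc2+/+ cells. Genes below that minimum in the Crtc2+/+ library can lie higher, such as Slc40a1 with a mean r of 0.56 and Fabp7 with 0.50. These correlations are across cells of 1 library, thinned to 1 depth, and are descriptions. Vcam1, an adhesion molecule, had 1333 CPM in Crtc2-/- cells with 3 or more members and 184 CPM in those with none, and 1288 and 274 CPM in the Crtc2+/+ library. Mrc1, the mannose receptor, had 872 and 165 CPM in Crtc2-/-, and 721 and 129 CPM in Crtc2+/+ cells. Msr1, a scavenger receptor like Marco, had 315 and 36.5 CPM in Crtc2-/-, and 324 and 29.5 CPM in Crtc2+/+ cells. In each of these 3 genes the levels in cells with 3 or more members differed less between the libraries than between the kinds of cell.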

How the data were processed

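The authors deposited a matrix of unnormalized UMI counts for either library; per the file headers it came from Cell Ranger 7.1.0. The submitters' processing notes name mm10, Cell Ranger and Seurat, and the sources used here do not say if introns were counted. Barcodes needed 500 UMIs and 250 genes, with mitochondrial UMIs no higher than 20%. Scrublet (scanpy 1.11.5), at 0.8% expected doublets per 1000 cells, called 273 Crtc2-/- and 263 Crtc2+/+ cells (2.98% and 2.74%), below the expected 7.34% and 7.69%, so some may remain. Gates were C1qa, C1qb and C1qc at 20 or more UMIs together; Sox5 at 2 or more with Tyrobp, Fcer1g and Lyz2 at 3 or more, Cd79a and Cd79b under 2 and neither T nor endothelial; Ly6c2 and Ccr2 at 1 or more each; Cd3d, Cd3e and Cd3g at 2 or more; Ptprb and Stab2 at 3 or more. Counts were summed over cells and scaled to CPM, with exact 95% Poisson intervals; shares have Clopper-Pearson intervals, and ratios of sums the exact conditional interval. For log2 ratios (Crtc2-/- divided by Crtc2+/+) and for 2-fold calls, 10 CPM was added to each level. Thinning drew 2000 UMIs per cell without replacement. The text names all 9 members, the 10 genes most like them and up to 4 genes of each list by size of log2 ratio; other list genes named were chosen after their values were seen. Members, gates and gene lists were chosen with earlier results of these data known. The calculations were tested on simulated data. Software: matplotlib 3.10.9, pandas 2.3.3, Python 3.11.15, scipy 1.17.1, numpy 2.4.6. Promoters are RefSeq's (GRCm38.p6).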

Additional observations from a re-analysis of the deposited data

Results flagged for a closer look

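The summed level of Timd4 went opposite ways in different cells. In C1q-high cells it was higher in the Crtc2-/- library, at 9.60 CPM against 0.221 CPM in the Crtc2+/+ library (log2 ratio 0.94 with 10 CPM added). In cells outside every gate it was lower, at 1.34 CPM in Crtc2-/- against 3.79 CPM in Crtc2+/+ cells. The log2 ratio was -0.28 and the ratio 0.354 (0.213 to 0.578). These were 29 UMIs in 16 of 3171 Crtc2-/- cells and 44 UMIs in 12 of 1885 Crtc2+/+ cells. The interval takes UMIs as independent, although a few cells held all of them, so it does not cover which cells were sampled. The Crtc2+/+ cells outside every gate held 68.8% of that library's 64 Timd4 UMIs. The difference between the populations was not tested.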

How the results depend on the processing

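No paired analysis was possible because each genotype had 1 library and no comparison came from a test. The number of members at least 2-fold higher in C1q-high cells was 7 and lay between 6 (with 50 CPM added) and 9 (with 1 CPM added, with the C1q gate at 50 UMIs, or without the cells also in the Sox5-high gate). All 99 log2 ratios of single members over 11 alternatives were above 0. The share of Crtc2-/- C1q-high cells with 3 or more members was 12.5% and moved beyond its counting interval to 14.4% with the C1q gate at 50 UMIs, 8.24% with cells thinned to 1000 UMIs, 15.4% at 4000 UMIs and 22.7% with no thinning. In the Crtc2+/+ library it was 0.324% and moved to 0.607% with no thinning. Chosen after seeing the data were 2 alternatives: without the cells also in the endothelial gate the Crtc2-/- share was 7.95%, and without those also in the Sox5-high gate it was 16.2%. Keeping called doublets, a mitochondrial limit of 10%, the C1q gate at 10 UMIs and cells of exactly 1 gate left both shares within their intervals. Depth limits Marco, Timd4 and Cd163, whose Crtc2+/+ C1q-high counts were 8, 11 and 13 UMIs, and Crtc2+/+ values from cells with several members rest on 26 cells or fewer, and on 10 to 19 outside the endothelial gate. The levels in cells without another member at full depth were also added after seeing the data.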

Other observations

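The sparse Timd4 and Cd163 transcripts outside every gate lay mostly in cells without another member. Of the 32 Crtc2-/- cells outside every gate with a Cd163 UMI, 4 had another member. Together they had 1331 CPM of Cd209a and 398 CPM of Flt3, both dendritic cell markers, against 143 and 121 CPM in the other Crtc2-/- cells outside every gate. Of the other dendritic markers, Siglech was at 360.1 CPM against 119 CPM, Clec9a at 62.0 against 61.2 and Xcr1 at 26.6 against 38.7. Their C1qa level was 35.4 CPM, against 32.4 CPM in the others. In the Crtc2+/+ library 5 such cells had 541 CPM of Cd209a and 349 CPM of Flt3, against 98.2 and 114 CPM in the others. Of the cells with a Timd4 UMI, 3 of 16 Crtc2-/- and 0 of 12 Crtc2+/+ cells had another member, and their Flt3 levels were 264 and 195 CPM, against 124 and 114 CPM in the others. The other dendritic markers did not all stand higher in these Timd4 cells: Cd209a was at 250.1 CPM in Crtc2-/- but 40.3 CPM in Crtc2+/+ cells, against 161 and 101 CPM in the others. The groups of cells were picked by these UMIs and are small, so the values are descriptions.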
